A study of Mus musculus with 48 samples.

Results

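The elastic fibre of the aortic wall is described here through 10 genes: elastin (Eln), the fibrillins Fbn1 and Fbn2, the fibulins Fbln1, Fbln2 and Fbln5, the fibulin relatives Efemp1 and Efemp2, which encode fibulin-3 and fibulin-4, and the microfibril-associated proteins Mfap4 and Mfap5. They were taken by name, as structural genes of the fibre, and were 10 of the 18782 genes in the table. All 10 passed the filter on low counts, beside 14431 tested genes in all, although Fbn2 passed only through BAPN libraries, since none of the control libraries held 10 counts of it. Elastic fibres form when soluble elastin is laid onto a scaffold of fibrillin microfibrils and lysyl oxidases join neighbouring elastin chains through their lysines. Fibulins and Mfap proteins bind elastin, microfibrils or the cross-linking enzyme and guide that assembly. The mature fibre gives the arterial wall its recoil, and BAPN (beta-aminopropionitrile) blocks lysyl oxidase, so that new elastin and collagen remain poorly joined.

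RNA was sequenced from the thoracic aorta of 48 wild-type C57BL/6J mice, 1 library per mouse. Male and female controls (MaCon, n = 10, and FeCon, n = 10) drank normal water. The other mice drank water with 0.4% BAPN for 28 days from 3 weeks of age, and were sorted at the end into mice with no visible lesion (MaNonAD, n = 4, and FeNonAD, n = 8) and mice with a dissection or aneurysm (MaAAD, n = 7, and FeAAD, n = 9). Mice that died of rupture before day 28 are not among them, and NonAD and AAD mice differ by outcome and not by treatment. The study's methods describe a dissection from the ascending to the proximal descending aorta and RNA from its lesioned segments, and which segment stood for these in mice with no lesion is not given in the sources used here. The comparisons ask how transcription of the fibre's parts differed with BAPN exposure, with a lesion, and between the sexes.

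Exon sequences of elastin and fibrillin-1 are shown because they carry the chemistry of the fibre, and of the BAPN target, in their letters. Elastin's cross-linking stretches are runs of alanine broken by lysines, and exon 18 of 37 of the Eln transcript of 3853 bases (GENCODE M21, GRCm38, chr5:134718989-134719048, minus strand) holds 3 lysine codons, given in capitals. Fibrillins and fibulins are built from small modules held by cysteine pairs, and exon 63 of 65 of the Fbn1 transcript of 11971 bases (chr2:125306270-125306501, minus strand) holds 11 cysteine codons, given in capitals. Both run 5′ to 3′ along the transcript, and the counts themselves were made on GRCm39.
Eln exon 18: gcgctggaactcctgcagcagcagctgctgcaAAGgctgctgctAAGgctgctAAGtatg
Fbn1 exon 63: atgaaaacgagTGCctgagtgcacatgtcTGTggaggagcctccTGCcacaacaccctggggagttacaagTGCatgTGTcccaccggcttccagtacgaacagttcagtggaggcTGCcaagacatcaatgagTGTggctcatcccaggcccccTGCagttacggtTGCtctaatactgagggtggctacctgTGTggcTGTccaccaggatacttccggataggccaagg
In the 860 codons of that Eln transcript, glycine made up 36.3%, alanine 21.0% and cysteine 0.233%, and 21 of the 38 lysine codons followed a pair of alanine codons. No coding sequence of the other 9 genes held a lysine after a pair of alanines, and in the fibrillins and fibulins cysteine made up 8.11% to 12.6% of codons. Mfap4, with 2.85%, and Mfap5, with 4.88%, lay between these.

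Library totals ranged from 13548003 to 17281262 counts. Levels are given as CPM, counts scaled to library size with edgeR's TMM factors, and a change was called at an adjusted p under 0.05 in edgeR's quasi-likelihood test. The 8 smooth muscle markers were abundant in every group, with summed levels of 13305 to 68629 CPM over all libraries. Markers of heart muscle, which adjoins the aortic root, were highest in FeCon replicate 10, at 594.5 CPM summed over 7 genes. Summed levels of 7 fibroblast markers were lowest of all 48 libraries in FeAAD replicate 9 (1877 CPM), FeAAD replicate 5 (2808 CPM) and MaAAD replicate 7 (3910 CPM), where the next library was at 5304 CPM, and FeAAD replicate 5 also had the highest macrophage sum, 4729 CPM. FeNonAD replicate 8 had the highest level of its group for 7 of the 10 elastic fibre genes. Fold changes without these 5 libraries are given beside several of the results, while ratios were not recomputed without all 5. The 5 were picked after seeing marker and member values, so p-values without them are a description and not a test. Because whole tissue was sequenced, fewer cells of a type and less RNA per cell cannot be told apart.

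Elastin dominated the set. Divided by the length of each gene's longest annotated transcript, Eln stood at 3115 ± 712 CPM per kb in MaCon and 2838 ± 640 CPM per kb in FeCon (SD, n = 10 each), the 5th and 7th highest of 18021 genes with a length. It was 2nd in both NonAD groups and highest in both AAD groups, with 7262 ± 2212 CPM per kb in MaAAD (n = 7) and 7590 ± 2792 CPM per kb in FeAAD (n = 9). Mfap4 came next at 997 ± 228 CPM per kb in MaCon and 861 ± 144 in FeCon, below the range of Eln and above that of every other member. Fbln5, Mfap5 and Fbln1 followed with means of 141 to 244 CPM per kb in the controls, and the ranges of Fbln5 and Mfap5, and of Mfap5 and Fbln1, overlapped. Efemp2, Fbln2 and Fbn1 lay between 53.1 and 70.5 CPM per kb with overlapping ranges, and Efemp1 at 28.0 to 30.3 CPM per kb. Fbn2 was all but absent in controls, at 0.0143 CPM per kb in MaCon and 0.0119 in FeCon. In both AAD groups Fbln2 moved from below Fbln1 to above it in the order of means, with overlapping ranges. The order rests on transcript length: with a coding transcript of 2371 in place of 5829 bases, Fbln5 would stand at 537 CPM per kb in MaCon and keep its place. With 939 in place of 1770 bases, Mfap4 would stand at 1879 CPM per kb in MaCon. Mfap4 would stay 2nd among the members. That mean lies above the lowest Eln value in MaCon, 1800 CPM per kb, so the 2 ranges would overlap.

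**Figure D1:**
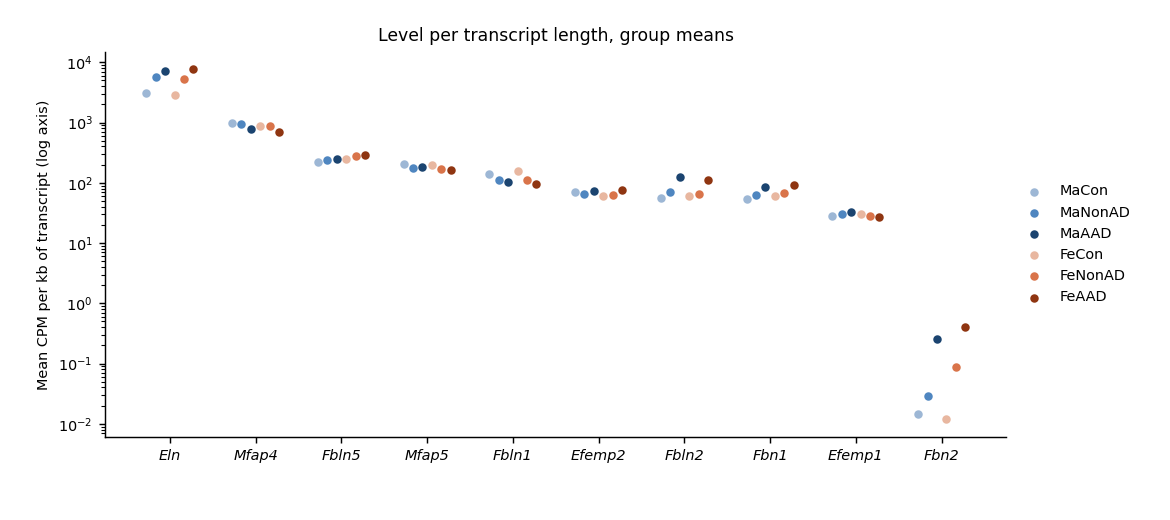
Mean CPM per kb of the longest annotated transcript on a log axis, for each gene (x axis, ordered by MaCon) and each of the 6 groups (colours). Eln lies above all other genes in every group, and Fbn2 lies lowest, with its AAD means (0.251 and 0.409) above its control means.

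Elastin RNA rose in both AAD groups and in FeNonAD against controls, and was not called in MaNonAD. Eln ranged from 6935 to 16003 CPM in MaCon (median 11667) and from 7934 to 16040 CPM in FeCon (median 10480.5). In MaNonAD the 4 mice had 23597, 11951, 28739 and 24556 CPM, so that 3 of 4 were above every MaCon mouse and replicate 2 lay among them. MaAAD ranged from 15253 to 42607 CPM (median 26416), with 6 of 7 above every control.

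Against MaCon, the Eln difference was a log2 fold change of 0.89 ± 0.28 (SE) in MaNonAD, which did not pass over all genes (adjusted p = 0.14, edgeR), and it passed when only those groups were fitted (adjusted p = 0.0419) and with the 5 libraries left out (adjusted p = 0.0342). In MaAAD it rose by 1.22 ± 0.24 (adjusted p = 6.52e-05). The difference from MaNonAD to MaAAD was 0.33 ± 0.31 (adjusted p = 0.599).

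In females FeNonAD ranged from 6766 to 38688 CPM (median 17067), with 5 of 8 mice above every FeCon mouse and replicate 1 below all of them, and FeAAD ranged from 11072 to 44079 CPM (median 25585), with 8 of 9 above every control. Eln rose by 0.89 ± 0.23 in FeNonAD (adjusted p = 0.00729) and by 1.42 ± 0.23 in FeAAD (adjusted p = 1.97e-06) against FeCon. The highest FeNonAD value was that of replicate 8, and without the 5 libraries the FeNonAD rise was 0.68 (adjusted p = 0.0233). From FeNonAD to FeAAD the difference was 0.53 ± 0.24 (adjusted p = 0.12, edgeR). It was 0.91 (adjusted p = 0.00389) without those libraries. They hold the highest FeNonAD and the lowest FeAAD mouse for Eln, so their removal widens the difference by construction.

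Elastin counts alone made up 1.19% of a library on average in MaCon, 2.24% in MaNonAD and 2.90% in MaAAD, and 1.05%, 2.05% and 2.97% in FeCon, FeNonAD and FeAAD. Of the counts of all 10 genes together, Eln held a mean of 69.1% in MaCon and 82.8% in MaAAD, and 67.2% in FeCon and 83.3% in FeAAD. All 8 smooth muscle markers, genes of the cells that make most of the wall's elastin, fell in both AAD groups against controls, with summed medians of 46066 CPM in MaCon against 22779 in MaAAD and 48005 in FeCon against 23849 in FeAAD. Of the cartilage markers, Acan rose in all 4 BAPN groups against controls, by 1.22 in MaNonAD, 1.40 in MaAAD, 1.02 in FeNonAD and 1.55 in FeAAD. The part of these markers in the Eln result was not tested.

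**Figure D2:**
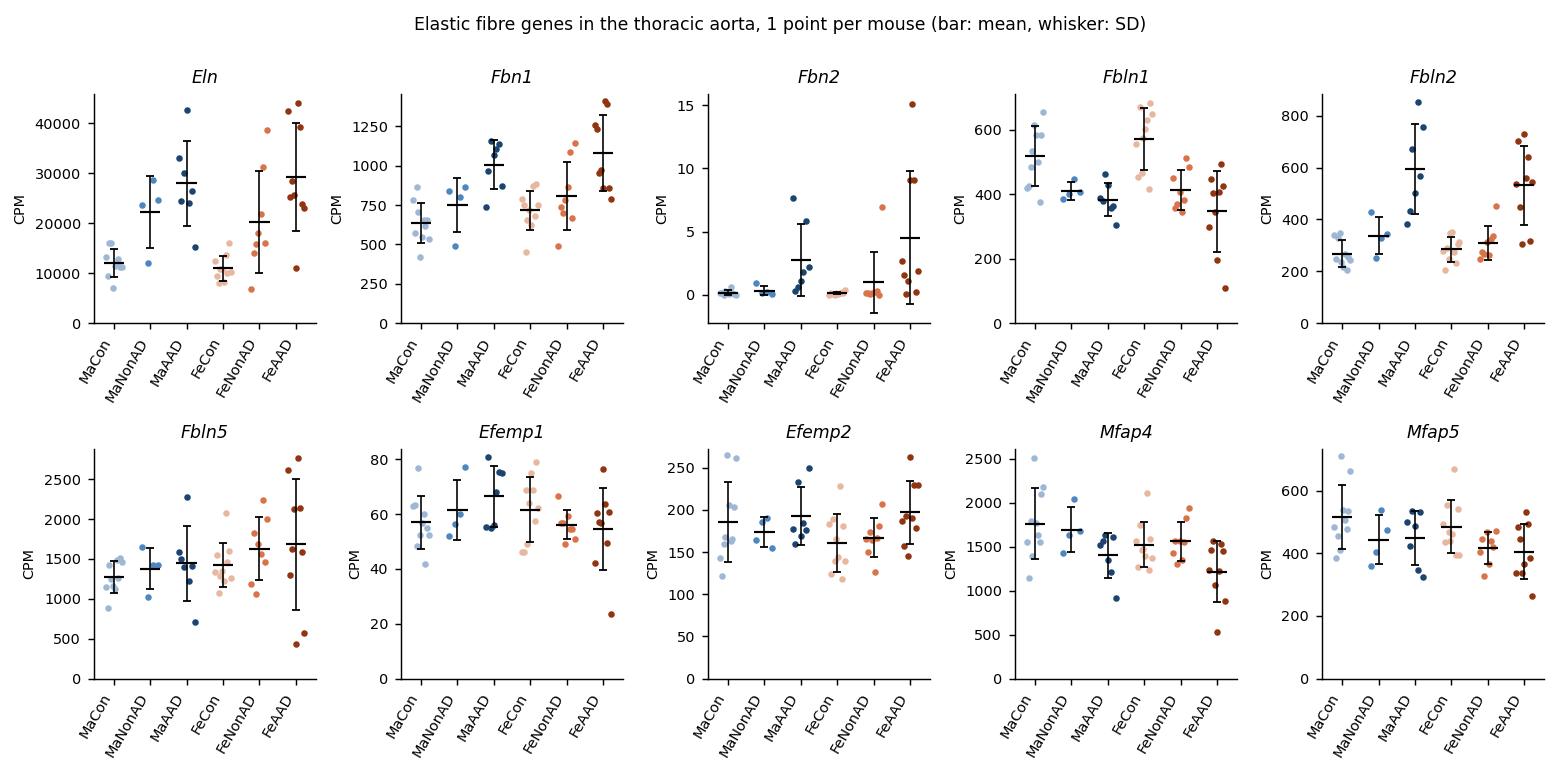
CPM of each of the 10 genes (panels) by group (x axis), with 1 point per mouse, the mean as a bar and the SD as a whisker, on linear axes that include 0. Eln, Fbn1, Fbn2 and Fbln2 have their highest means in the AAD groups, and Fbln1 has lower means in BAPN groups than in controls. Within a sex the ranges of all genes overlap between groups, except those of Fbln2 in MaAAD and MaCon.

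Fibrillin-1, the main microfibril protein of the adult wall, rose in both AAD groups against controls and was not called in either NonAD group. Fbn1 ranged from 419 to 865 CPM in MaCon (median 635) and from 736 to 1155 CPM in MaAAD (median 1068), with 6 of 7 MaAAD mice above every control. The MaNonAD mice had 841, 491, 803 and 863 CPM, all within the MaCon range. Fbn1 rose by 0.66 ± 0.15 in MaAAD against MaCon (adjusted p = 0.000482), and MaNonAD differed from MaCon by 0.24 ± 0.18 (adjusted p = 0.655).

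In females Fbn1 ranged from 454 to 881 CPM in FeCon (median 733), from 492 to 1143 in FeNonAD (median 760.3) and from 786 to 1409 in FeAAD (median 976). All 9 FeAAD mice were above the FeCon median and 6 above every FeCon mouse. The rise against FeCon was 0.59 ± 0.14 (adjusted p = 0.000665). Against FeNonAD it was 0.42 ± 0.15 with an adjusted p of 0.0457 (edgeR), a call that was lost in 13 of 24 alternatives. The difference was 0.62 (adjusted p = 0.00576) without the 5 libraries, which hold the highest FeNonAD and the lowest FeAAD mouse for Fbn1.

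Fibrillin-2, the fibrillin of the embryonic and newborn vessel, was barely transcribed in control aorta and had clear counts in most aortas with a lesion. The 10 MaCon libraries held 0 to 9 counts and the 10 FeCon libraries 0 to 6 counts, with 24 and 19 counts in all, and in each sex 2 libraries held none. The 7 MaAAD libraries held 127, 4, 10, 17, 30, 94 and 38 counts (replicates 1 to 7), so 6 of 7 had at least 10. The 9 FeAAD libraries held 43, 25, 1, 18, 154, 252, 146, 3 and 31 counts (replicates 1 to 9), so 7 of 9 had at least 10, while replicates 3 and 8 were at control level.

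In CPM, the Fbn2 mean was 0.158 ± 0.178 in MaCon against 2.77 ± 2.85 in MaAAD, and 0.131 ± 0.116 in FeCon against 4.52 ± 5.30 in FeAAD. The log2 fold change was 4.06 ± 0.91 in MaAAD (adjusted p = 0.000397) and 5.03 ± 0.91 in FeAAD (adjusted p = 1.58e-05). With no filter on low counts these were 4.09 (adjusted p = 0.000504) and 5.02 (adjusted p = 2.28e-05). Even at its highest, 15.1 CPM in FeAAD replicate 6, Fbn2 remained far below Fbn1 in the same aorta, at 1409 CPM.

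Among mice without a lesion, Fbn2 was high in single animals. The MaNonAD libraries held 15, 2, 3 and 1 counts, and the difference from MaCon was 1.01 ± 1.23 (adjusted p = 0.821). Of the FeNonAD libraries, replicate 8 held 109 counts and the other 7 held 0 to 5. The FeNonAD rise against FeCon, 2.83 ± 0.96 (adjusted p = 0.0383), rested on that library, and without it the log2 fold change was 0.03 (adjusted p = 0.987), and 0.39 without all 5 (adjusted p = 0.85). The FeAAD rise against FeNonAD was 2.19 ± 0.79 (adjusted p = 0.0453, edgeR). This call was lost in 13 of 24 alternatives, among them the fit with no filter on low counts (2.17, adjusted p = 0.0606). Without FeNonAD replicate 8, the highest of its group, the rise was 4.99 (adjusted p = 3.77e-05), and it was 4.92 (adjusted p = 0.000103) without all 5. In FeNonAD replicate 8 the cartilage marker sum was also the highest of its group, 410.1 CPM against a median of 218, as was the macrophage sum, 601.9 CPM against a median of 336, while the smooth muscle sum of 28753 CPM was the second lowest. Against controls, 4 of the 5 tested cartilage markers rose in MaAAD and 5 in FeAAD, with median sums of 136 CPM in MaCon, 322 in MaAAD, 146 in FeCon and 320 in FeAAD. The part of these 3 marker lists in the Fbn2 values was not tested.

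The fibulins went separate ways. Fibulin-2, which binds elastin, fibrillin and basement membrane proteins and appears in vessels under repair, rose with a lesion. Fbln2 ranged from 203 to 349 CPM in MaCon (median 251) and from 382 to 854 CPM in MaAAD (median 569), with no overlap, and MaNonAD mice had 427, 252, 327 and 343 CPM. The rise was 1.15 ± 0.16 in MaAAD against MaCon (adjusted p = 2.99e-07). From MaNonAD to MaAAD the difference was 0.82 ± 0.21 and lay at the threshold (adjusted p = 0.0502). DESeq2 gave 0.83 for it (adjusted p = 0.00788), it was 0.78 without the 5 libraries (adjusted p = 0.0254), and it was called in 4 of 11 cases with a single library left out.

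In females Fbln2 ranged from 206 to 351 CPM in FeCon (median 284), from 248 to 453 in FeNonAD (median 294) and from 306 to 732 in FeAAD (median 544). The FeNonAD difference from FeCon was 0.12 ± 0.16 (adjusted p = 0.651), and 0.04 without the 5 libraries (adjusted p = 0.903). FeAAD was higher by 0.90 ± 0.15 than FeCon (adjusted p = 5.08e-06) and by 0.78 ± 0.16 than FeNonAD (adjusted p = 0.000535). All 6 macrophage markers also rose in AAD against controls in each sex, with median sums of 245 CPM in MaCon and 1259.5 CPM in MaAAD, and of 271 CPM in FeCon and 786 CPM in FeAAD. Their part in the Fbln2 result was not tested.

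Fibulin-1, found along elastic fibres and basement membranes, was the only member that fell in any of the 6 comparisons within a sex. Fbln1 ranged from 377 to 655 CPM in MaCon (median 517) and from 304 to 464 CPM in MaAAD (median 377), and the MaNonAD mice had 384, 399, 447 and 407 CPM, all below the MaCon median. In females it ranged from 415 to 683 CPM in FeCon (median 589) and from 346 to 511 in FeNonAD (median 395). In FeAAD its lowest value was 108 CPM and its median 404 CPM. All BAPN-treated female mice were below the FeCon median. The change was -0.43 ± 0.17 in MaAAD (adjusted p = 0.0404), -0.46 ± 0.16 in FeNonAD (adjusted p = 0.0458) and -0.72 ± 0.16 in FeAAD (adjusted p = 0.000231) against controls. The first of these calls was lost in 13 of 24 alternatives and the second in 15 of 25, with no change of direction, and the third held in all 26. FeAAD replicates 9 and 5, lowest in fibroblast markers, were also lowest in Fbln1. The fibroblast marker sum had medians of 7681 CPM in male controls and 6300 CPM in MaAAD, and of 9227 CPM in female controls, 6981 CPM in FeNonAD and 6142 CPM in FeAAD, and its part in the Fbln1 result was not tested. Gsn, the most abundant of the 7, fell by 0.90 on the log2 scale in MaAAD, 0.53 in FeNonAD and 1.29 in FeAAD, whereas Lum rose by 1.61 in MaAAD and 1.11 in FeAAD and Pdgfra by 0.38 in MaAAD. Without the 5 libraries the changes were -0.36 (adjusted p = 0.0138), -0.48 (adjusted p = 0.00363) and -0.46 (adjusted p = 0.0011).

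Fibulin-5, which carries elastin to the microfibril and tethers it to cells, was not called in any comparison. Fbln5 ranged from 888 to 1511 CPM in MaCon (median 1261), from 708 to 2278 CPM in MaAAD (median 1409), from 1078 to 2077 CPM in FeCon (median 1344) and from 437 to 2760.1 CPM in FeAAD (median 1625). The spread was wider in FeAAD, with a coefficient of variation of 48.7% against 19.5% in FeCon, and FeAAD held both the highest and the lowest library of all. The FeAAD difference from FeCon was 0.24 (95% interval -0.17 to 0.66, adjusted p = 0.368), and it was 0.505 (adjusted p = 0.00792) without the 5 libraries, which include both low FeAAD mice.

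Efemp2, whose product fibulin-4 brings lysyl oxidase to elastin and is needed for fibre formation, had medians of 155 to 190.5 CPM over the 6 groups and was not called in any comparison. Its largest difference was 0.29 in FeAAD against FeCon (95% interval 0.04 to 0.54, adjusted p = 0.0612). It was 0.18 without the 5 libraries (adjusted p = 0.287), and it was called in 6 of 19 cases with a single library left out, as without FeCon replicate 7 (0.36, adjusted p = 0.0178). Efemp1, whose product fibulin-3 belongs to thinner connective tissue fibres, had medians of 55.7 to 67.9 CPM, and its differences within a sex lay between -0.18 and 0.22 with adjusted p of 0.217 or more.

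The microfibril-associated genes were not called in any comparison. Mfap4, which binds elastin and fibrillin in the wall, had medians of 1703 CPM in MaCon, 1655 in MaNonAD and 1519.6 in MaAAD, and of 1470.4, 1555 and 1241 CPM in FeCon, FeNonAD and FeAAD. Its differences were -0.33 ± 0.15 in MaAAD against MaCon (adjusted p = 0.0912), -0.32 ± 0.14 in FeAAD against FeCon (adjusted p = 0.0627) and -0.36 ± 0.15 in FeAAD against FeNonAD (adjusted p = 0.0886). Without the 5 libraries they were -0.22, -0.16 and -0.13 (adjusted p = 0.162, 0.309 and 0.62), while leaving out a single library brought a call in 1 of 17, 5 of 19 and 1 of 17 cases. All 7 MaAAD mice were below the MaCon median and 4 of 9 FeAAD mice below every FeCon mouse. Mfap5, a small microfibril protein that binds fibrillin, differed by -0.20 ± 0.13 in MaAAD (adjusted p = 0.243) and by -0.26 ± 0.12 in FeAAD (adjusted p = 0.0804) against controls, and by -0.11 and -0.18 without the 5 libraries (adjusted p = 0.539 and 0.237). The FeAAD difference was called in 1 of 19 cases with a library left out, that of FeAAD replicate 6 (adjusted p = 0.0363).

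Counted over the set, 5 of 10 members were called in MaAAD against MaCon, where 35.0% of all tested genes were called. Of these, 4 rose (Eln, Fbn1, Fbn2 and Fbln2, beside 18.9% of genes that rose) and Fbln1 fell (beside 16.1% that fell). The same 4 rose and Fbln1 fell in FeAAD against FeCon, where 44.4% of genes were called, 23.8% higher and 20.6% lower. In FeNonAD against FeCon Eln and Fbn2 rose and Fbln1 fell, 3 of 10 where 14.5% of genes were called, 6.87% higher and 7.66% lower. In FeAAD against FeNonAD Fbn1, Fbn2 and Fbln2 rose, 3 of 10 where 18.2% were called and 13.2% were higher. With a single library left out the count in FeNonAD against FeCon was 1 to 3, and it was 1 in 5 of 18 cases (without FeCon replicate 1, 3, 5, 6 or 9). That in FeAAD against FeNonAD was 1 to 4, and it was 1 in 8 of 17 cases (without FeNonAD replicate 1, 2, 3, 4, 5 or 7 or FeAAD replicate 6 or 7). The shares of members called in AAD against controls were thus near those of all genes, and they include Fbn2, which passed the filter only through libraries where it was high. The median log2 fold change of the members was 0.20 in MaAAD and 0.27 in FeAAD against controls, beside -0.03 and 0.00 over all tested genes.

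With edgeR, 0 members were called in MaNonAD against MaCon (1 at an unadjusted p under 0.05, 0 with DESeq2), where 0.624% of genes were called, and 0 in MaAAD against MaNonAD (3 unadjusted, 1 with DESeq2), where 0.409% were. At the study's threshold of at least a 2-fold change, 3 members remained in MaAAD against MaCon (Eln, Fbn2 and Fbln2, beside 11.4% of genes). In FeAAD against FeCon 2 remained (Eln and Fbn2, beside 12.7%). In FeNonAD against FeCon 1 remained (Fbn2, beside 2.75%), at 0.03 and adjusted p = 0.987 without FeNonAD replicate 8. In FeAAD against FeNonAD 1 remained (Fbn2, beside 7.04%), which was not called by edgeR with no filter on low counts (adjusted p = 0.0606). Ranges of CPM did not overlap for Fbln2 between MaAAD and MaCon, as for 8.91% of tested genes, and for no member between FeAAD and FeCon, as for 4.89%. Comparisons within a sex share control or NonAD mice, so their calls are not independent of each other.

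**Figure D3:**
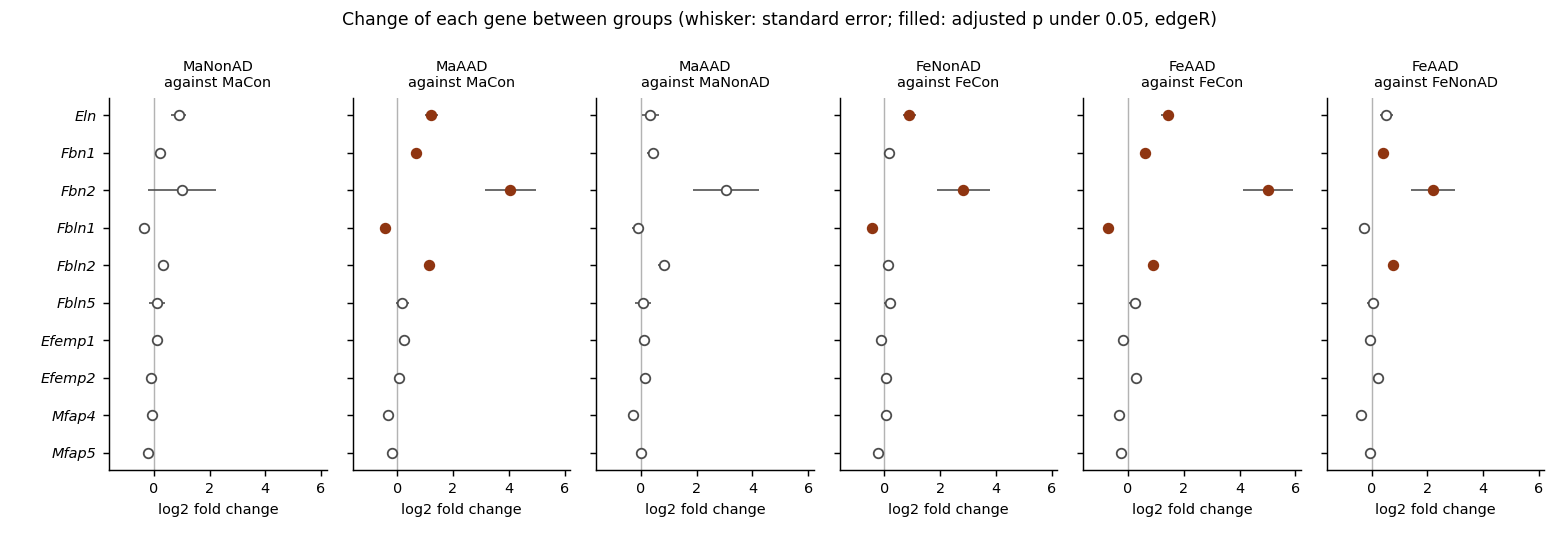
Log2 fold change (x axis) of the 10 genes (rows) in the 6 comparisons within a sex (panels), with the standard error as a whisker, hidden where it is shorter than the marker, and filled markers for an adjusted p under 0.05 in edgeR. Fbn2 has the largest values and errors, Eln lies right of 0 in all 6 panels, and Fbln1 left of 0 in all 6, although its FeAAD against FeNonAD value was 0.02 without the 5 libraries.

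No member was called between the sexes. With edgeR, 0 of 10 were called between MaCon and FeCon (0 at an unadjusted p under 0.05), where 14.3% of genes were called, 0 between MaNonAD and FeNonAD (0 unadjusted), where 0.0624% were, and 0 between MaAAD and FeAAD (1 unadjusted, Efemp1), where 0.0901% were. DESeq2 also called none. The male minus female difference of Eln was 0.13 in controls (95% interval -0.29 to 0.56) and -0.06 in AAD mice (-0.55 to 0.42), so differences within these intervals remain possible. As for the responses, the tests of sex by outcome called 0 members for NonAD against Con (0 unadjusted), AAD against Con (1 unadjusted, Efemp1) and AAD against NonAD (0 unadjusted), where 0.416%, 1.34% and 0.0% of genes were called, and DESeq2 also called 0 members. For Efemp1 the male minus female response to AAD was 0.40 ± 0.19 (adjusted p = 0.297).

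Ratios within a library cancel library scaling where levels are far above the added 1, as for Eln and Fbn1 but not for Fbn2. The mean log2 ratio of Eln to Fbn1, on log2(CPM + 1), was 4.23 ± 0.17 in MaCon, 4.85 ± 0.23 in MaNonAD and 4.75 ± 0.48 in MaAAD, and 3.92 ± 0.17 in FeCon, 4.53 ± 0.39 in FeNonAD and 4.69 ± 0.42 in FeAAD (SD). The 4 MaNonAD mice, at 4.60 to 5.16, lay above all MaCon mice, at 4.04 to 4.495. It was higher against controls by 0.62 in MaNonAD (adjusted p = 0.00719), 0.52 in MaAAD (adjusted p = 0.0102), 0.61 in FeNonAD (adjusted p = 0.00391) and 0.77 in FeAAD (adjusted p = 0.00247), by two-sided exact permutation tests adjusted over 18 ratio tests. Between NonAD and AAD it differed by -0.10 in males (adjusted p = 0.744) and 0.16 in females (adjusted p = 0.521) in the same exact tests. The ranges overlapped those of the controls in MaAAD, FeNonAD and FeAAD, where the lowest ratios were 4.12, 3.78 and 3.69.

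Against the mean of the 8 smooth muscle markers, Eln was higher by 2.25 in MaAAD and 2.35 in FeAAD with no overlap with controls (adjusted p = 0.000925 and 0.00039, exact permutation, the smallest p these group sizes allow before adjustment). Both parts of this ratio moved: Eln itself rose by 1.22 and 1.42, and the markers had a median change of -1.06 and -0.99. The ratio was higher by 1.28 in MaNonAD (adjusted p = 0.02, exact permutation) and 1.10 in FeNonAD (adjusted p = 0.0085, exact permutation), the former with an adjusted p of 0.063 without replicate 1, 3 or 4. From NonAD to AAD it differed by 0.96 in males (adjusted p = 0.0694, exact permutation) and was higher by 1.25 in females (adjusted p = 0.0102, exact permutation). The ratio of Fbn2 to Fbn1 was higher in FeAAD than in FeCon by 1.11 (adjusted p = 0.0246, exact permutation) and differed by 0.71 in MaAAD against MaCon (adjusted p = 0.141, exact permutation). For counts as low as those of Fbn2 it depends on the pseudocount: with 0.1 in place of 1 the MaAAD difference was 2.35 (adjusted p = 0.00694, exact permutation), and with 5 the FeAAD difference was 0.14 (adjusted p = 0.677, exact permutation).

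**Figure D4:**
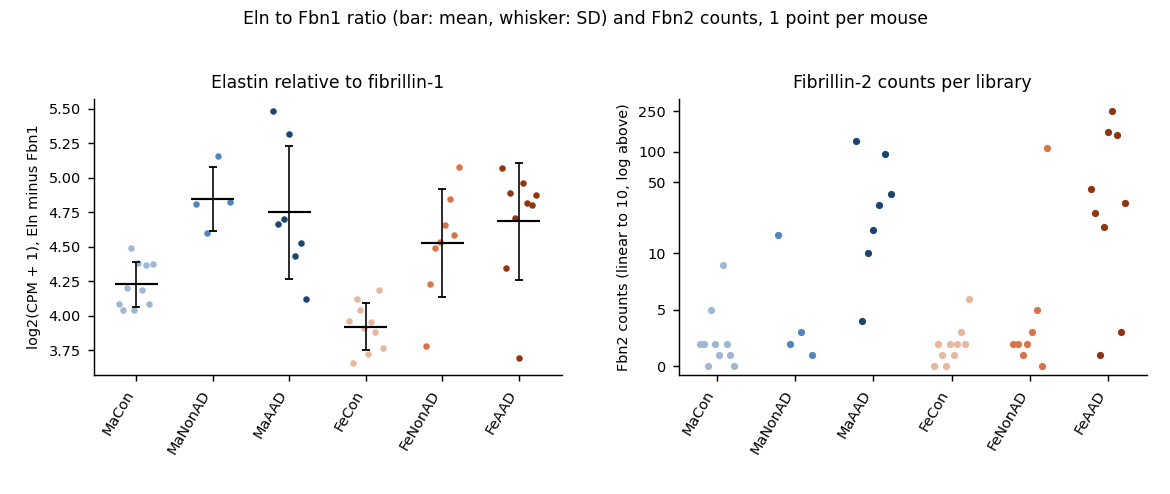
Left, log2(CPM + 1) of Eln minus that of Fbn1 in each mouse by group, with mean and SD; right, Fbn2 counts per library on an axis that is linear up to 10 and logarithmic above. The 4 MaNonAD mice lie above all MaCon mice on the left, and on the right the highest counts among mice without a lesion are those of FeNonAD replicate 8, with 109, and MaNonAD replicate 1, with 15.

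Enzymes that cross-link elastin rose beside it in mice with a lesion. The smooth muscle, macrophage and cartilage sums given above also differed between these mice and controls, and their part was not tested. Of 8 genes, the lysyl oxidases, the proteases that activate them and the copper pump Atp7a, 7 rose in MaAAD, 6 in FeAAD against controls and 5 in FeAAD against FeNonAD, and none fell in these comparisons, beside 18.9%, 23.8% and 13.2% of all tested genes that rose. Lox, the main lysyl oxidase and a target of BAPN, rose from 397 ± 107 to 840.1 ± 84.9 CPM in MaAAD (1.08 ± 0.26, adjusted p = 0.000991) and from 449 ± 105 to 1035 ± 439 CPM in FeAAD (1.21 ± 0.25, adjusted p = 0.000101). Loxl4 rose by 1.36 and 0.69, and Tll1, a protease that trims pro-lysyl oxidase, by 2.05 and 2.07. With edgeR 0 of the 8 were called in MaAAD against MaNonAD (7 at an unadjusted p under 0.05), in MaNonAD against MaCon (2 unadjusted) or in FeNonAD against FeCon (1 unadjusted). Of all tested genes 0.409%, 0.624% and 14.5% were called there, in that order. DESeq2 also called 0 of the 8 in each.

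Of 11 proteases known to cleave elastin, Mmp7, Elane and Ctsg had too few counts to test (at most 5 in any library), and 7 of the other 8 rose in each AAD group against its controls, 6 of them in both, beside 18.9% of all tested genes in MaAAD and 23.8% in FeAAD. The macrophage elastase Mmp12 went from a mean of 1.47 to 34.7 CPM in MaAAD (4.55 ± 0.63, adjusted p = 2.68e-07, edgeR). In FeAAD it went from 0.949 to 15.1 CPM (3.98 ± 0.63, adjusted p = 1.51e-06). The SD was larger than the mean in both AAD groups, at 59.5 and 23.95 CPM. Ctss, the lysosomal cathepsin S of myeloid cells, rose by 3.30 and 3.24. The neutrophil protease Prtn3 rose by 2.44 and 3.51, to means of 1.32 ± 1.87 and 1.56 ± 2.49 CPM (SD). Their median change was 1.39 in MaAAD and 1.63 in FeAAD, and the macrophage sums given above moved with them, whose part was not tested.

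Among 20 other microfibril-associated genes, of which 19 were tested, as many fell as rose in FeAAD against FeCon (3 and 3), and 2 rose and 4 fell in MaAAD against MaCon. These 6 of 19 stood beside 44.4% and 35.0% of all tested genes called. Ltbp2, a fibrillin-binding protein of the latent TGF-beta binding family, rose by 1.21 in MaAAD and 1.36 in FeAAD, and Emilin2, an elastin-associated glycoprotein, by 0.87 and 0.62. Its relative Emilin1 rose by 0.64 in FeAAD and by 0.41 in FeNonAD. Ltbp4, which guides elastin deposition together with fibulin-5, fell by 0.76 and 0.94 on the log2 scale, from 2322 to 1375 CPM in males and from 2786 to 1451 CPM in females. Thsd4, which promotes fibrillin-1 assembly, fell by 0.78 and 0.97, and Adamtsl2, which binds fibrillin-1 and Ltbp1, by 0.83 and 1.40, and by 0.93 in FeNonAD. Of the 3 genes of the elastin receptor complex, Glb1 rose by 0.38 in MaAAD, 0.32 in FeNonAD and 0.47 in FeAAD.

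Within groups, several members moved together from mouse to mouse. These are correlations of each library's deviation from its group mean on log2(CPM + 1) over 48 libraries, which share depth and composition, and they are given as a description. Eln went with Fbn1 (r = 0.79, rho = 0.79) and with Fbln5 (r = 0.72, rho = 0.69), and these were 0.765 and 0.70 without the 2 libraries farthest out. Fbln5 also went with Mfap4 (r = 0.62, rho = 0.47), with Fbln1 (r = 0.58, rho = 0.32) and with the fibroblast sum (r = 0.76, rho = 0.47), but these r values were 0.44, 0.29 and 0.60 without the 2 libraries farthest out. Mfap4 went with Mfap5 (r = 0.74, rho = 0.83) and with Fbln1 (r = 0.70, rho = 0.77). Fbln1 followed the fibroblast marker sum (r = 0.90, rho = 0.835), Fbln2 the macrophage sum (r = 0.68, rho = 0.75) and Efemp1 the mesothelial sum (r = 0.64, rho = 0.69). Mfap4 went about equally with the smooth muscle sum (r = 0.64, rho = 0.66) and the fibroblast sum (r = 0.63, rho = 0.625). Of the marker sums, that of cartilage was closest to Eln (r = 0.565, rho = 0.505), and Eln had r = -0.13 with the smooth muscle sum. Fbn2 had r = -0.605 (rho = -0.55) with the smooth muscle sum, 0.52 (rho = 0.35) with that of cartilage and 0.485 (rho = 0.48) with that of macrophages. Without the 2 libraries farthest out these r values were -0.52, 0.42 and 0.46.

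Over all 48 libraries, where group differences enter, the genes most like Eln were Col1a2, Ltbp2, Fn1, Galnt10 and Kif26b (r = 0.85 to 0.88), and those most like Fbn1 were Lox (r = 0.87), Pxdn, Eln (r = 0.85), Loxl2 and Cdh11. Fbn2 was most like Tnfsf8 (r = 0.93), Col12a1, Col11a1, P4ha3 and Ddah1. In the 20 control libraries alone, Lox again stood among the 5 genes most like Fbn1 (r = 0.88), with Atrnl1, Sel1l, Dnajc3 and Arsb, and those most like Eln were Adamtsl1, Vtcn1, Nfe2l1, Col15a1 and Pxdn (r = 0.82 to 0.88).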

How the data were processed

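Thoracic aortas of 48 mice were profiled by strand-specific mRNA sequencing. The authors deposited expected counts per gene, not scaled to library size, with 1 column per mouse. The submitters' processing notes list Bowtie2, RSEM 1.3.1 and GRCm39, and the roles of these tools are not described further in the sources used here. Of all values 4.99% were not whole and were rounded, while every value of the 10 genes was whole. The design had named the unit as counts. Groups came from the labels, and column names were matched to the sample titles.

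Genes passing filterByExpr (14431 of 18782) were tested with edgeR 4.0.16 in R 4.3.3 (TMM, quasi-likelihood, robust) with a mean for each of 6 groups, and p-values were adjusted by Benjamini-Hochberg over all tested genes of a comparison. Standard errors and intervals are approximate, from the fold change and the F statistic. The study's own differential test was DESeq2 with a 2-fold threshold, so DESeq2 1.42.0 was an alternative. The fit was checked on simulated data. Ratios were tested by two-sided exact permutation with scipy 1.17.1, on log2(CPM + 1). Lengths, exons and codons came from GENCODE M21 (GRCm38), a different build from that of the counts, and 18021 genes matched by symbol. Replicate numbers are only names: deviations of same-numbered libraries did not correlate in all pairs of any comparison (lowest r from -0.532 to -0.09). Each library was also left out in turn, 6 of them as planned and 42 added after seeing the data, as was the removal of 5 libraries together, which were picked by their marker and member values. Reads carry no molecular identifiers, so counts near 0 have counting error that p-values do not separate from other spread.

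The members and lists were chosen with earlier results of these data known. All 10 members are named. From other lists the text names at most 3 called genes in each direction, averaging at least 10 counts, and for Eln, Fbn1 and Fbn2 the 5 genes of highest Pearson r.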

Additional observations from a re-analysis of the deposited data

Results flagged for a closer look

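A library was set apart where its gap to the nearest of its group was large for the group's range by Dixon's test. The test covered 78 sets of values (10 genes and 3 ratios in 6 groups), chance marks about 1 in 20 groups, and 6 values were marked. FeNonAD replicate 8 accounted for 3 of them: Fbn2 at 6.94 CPM where the other 7 mice were at 0 to 0.306 CPM, Fbln2 at 452.5 CPM where the others ended at 335.5 CPM, and a log2 ratio of Fbn2 to Fbn1 of -7.17. In the male mice without a lesion, Fbn1 was low in MaNonAD replicate 2, at 491.4 CPM, and Fbn2 was high in MaNonAD replicate 1, at 0.898 CPM from 15 counts. In FeCon replicate 7 Fbln5 was high, at 2077 CPM.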

How the results depend on the processing

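Counts and fold changes were recomputed under the alternatives named below and without each library in turn, and ratios without the 6 planned libraries only, so that none was left out for MaAAD against MaCon. In these runs no called fold change or ratio changed its direction. Where a count or call moved, the cause was not tested. Requiring a 2-fold change, a stricter rule by construction, left 3 members in MaAAD against MaCon, 1 in FeNonAD against FeCon, 2 in FeAAD against FeCon and 1 in FeAAD against FeNonAD, and of the other elastic fibre genes 10, 0, 9 and 5. In MaNonAD against MaCon, fitting only these groups called 1 member and 2 other genes, and leaving out 5 libraries together called 1 and 3. In MaAAD against MaNonAD 1 member each was called with DESeq2, with its size factors, without robust estimation and without the 5 libraries, beside 3, 3, 2 and 4 other genes. In FeAAD against FeNonAD 1 member was called with no filter on low counts and 1 with only these groups fitted, beside 7 other genes in the latter. In FeNonAD against FeCon 6 other genes were called with only these groups fitted and 5 without the 5 libraries. Leaving out a library at a time gave 0 to 1 members in MaAAD against MaNonAD, 1 to 3 in FeNonAD against FeCon and 1 to 4 in FeAAD against FeNonAD, and 0 to 1 other genes in MaNonAD against MaCon and 0 to 5 in MaAAD against MaNonAD. The log2 ratio of Fbn2 to Fbn1 was 0.35 in MaNonAD and 2.35 in MaAAD against MaCon with a pseudocount of 0.1, and with 5 it was -0.15 in MaAAD and 0.14 in FeAAD against controls. With a library left out it ranged from -0.19 to 0.10 in MaNonAD against MaCon and from -0.0675 to 0.23 in FeNonAD against FeCon, and it was 1.18 in FeAAD against FeNonAD without FeNonAD replicate 8. The ratio of Eln to Fbn1 ranged from -0.18 to 0.0045 in MaAAD against MaNonAD, and that of Eln to smooth muscle markers from 1.08 to 1.65 in MaNonAD against MaCon, while the median over those markers gave 1.01 in MaAAD against MaNonAD (adjusted p = 0.0298, exact permutation). Replicate numbers did not pair the mice. With the replicate block, 1 member was called in FeNonAD against FeCon. In exact permutation tests over same-numbered pairs, which use fewer mice, the ratio of Fbn2 to Fbn1 was 0.16 in MaNonAD and 1.13 in FeAAD against controls, and that of Eln to Fbn1 was 0.64, 0.54, 0.62 and 0.75 in MaNonAD, MaAAD, FeNonAD and FeAAD against controls and 0.19 in MaAAD against MaNonAD. Under the same pairing, Eln to smooth muscle markers was 0.86, 2.18, 1.18 and 2.36 against controls in that order and 1.29 in FeAAD against FeNonAD. All 10 ratio differences that passed without the pairing failed to pass with it (adjusted p of 0.0703 or more). For MaNonAD against MaCon this was fixed in advance, since 4 pairs cannot give a p below the threshold, whatever the values. The 7 to 9 pairs behind the others also limit how small p can be before adjustment. No conclusion on the ratios is drawn from these failures. Leaving out 42 of the 48 libraries in turn, and the 5 libraries together, was chosen after seeing the data.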
